A study of Homo sapiens with 6 samples.

Results

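The 10 genes described here encode dual-specificity phosphatases (DUSPs) that act on MAP kinases: DUSP1, DUSP2, DUSP4, DUSP5, DUSP6, DUSP7, DUSP8, DUSP10, DUSP14 and DUSP16. They were found by gene symbol, and all 10 were among the 16781 genes measured and among the 13028 genes with enough reads for a test. RNA was sequenced from Caco-2, a widely used cell line that was derived from a colon adenocarcinoma, in 2 groups of 3 libraries. The WT group is unmodified Caco-2. The CBS KO group is Caco-2 infected with a lentivirus carrying Cas9, a guide against CBS and a puromycin resistance gene, and then selected with puromycin. CBS makes cystathionine from homocysteine and serine and is a source of hydrogen sulfide. A control with empty vector was not analysed here, so knockout, infection and selection cannot be told apart. The labels do not say whether the resistant cells were 1 clone or a mixed pool, nor whether each library had its own culture, so every p-value reflects only how much these libraries vary, which may be technical variation. The list is of genes with a shared function, but it was chosen by someone who knew the fold changes of CBS KO against WT in these libraries. The values of its members in that comparison are therefore a description, given without p-values. Where a member is said to be called, the word only records on which side of the genome-wide threshold it fell, and supports nothing about the members.

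MAP kinases (ERK, JNK and p38) are switched on when a kinase above them adds phosphate to a threonine and a tyrosine of their activation loop. A dual-specificity phosphatase removes both and so switches the kinase off. Several DUSP genes are themselves switched on by the MAP kinase pathway, which makes them feedback inhibitors, and in epithelia such as the gut lining they set how long a growth factor or stress signal lasts. The family is usually divided by place and target: nuclear, rapidly induced enzymes (DUSP1, DUSP2, DUSP4, DUSP5), cytoplasmic enzymes directed at ERK (DUSP6, DUSP7), enzymes directed at JNK and p38 (DUSP8, DUSP10, DUSP16), and small atypical members such as DUSP14.

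The promoters of the members differ in the elements known to bind signal-dependent factors, and those that lie outside the annotated gene are shown in full. RefSeq (GRCh38.p14) start-site windows were found for 8 of the 10 genes, with 2 windows for DUSP10. DUSP4 and DUSP5 had no window. The 250 bases before each start were searched on both strands for the cAMP response element (CRE, TGACGTCA), its core (TGACG, which lies within the full element), the AP-1 site (TGANTCA), the E-box (CACGTG), the heat shock element (GAANNTTC), the CArG box, the GC box (GGGCGG) and the TATA box (TATAAA). The 4 windows below lie outside the annotated gene, at chr5:172771196-172771445, chr2:96145441-96145690, chr3:52056572-52056821 and chr12:12562864-12563113, all on the minus strand. Sequences read 5′ to 3′ toward the start site, and capitals mark CRE, CRE core, E-box and TATA matches.
DUSP1: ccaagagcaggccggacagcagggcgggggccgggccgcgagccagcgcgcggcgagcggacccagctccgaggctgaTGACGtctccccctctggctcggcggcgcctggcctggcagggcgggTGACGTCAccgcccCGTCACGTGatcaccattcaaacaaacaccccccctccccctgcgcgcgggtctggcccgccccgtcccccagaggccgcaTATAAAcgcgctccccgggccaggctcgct
DUSP2: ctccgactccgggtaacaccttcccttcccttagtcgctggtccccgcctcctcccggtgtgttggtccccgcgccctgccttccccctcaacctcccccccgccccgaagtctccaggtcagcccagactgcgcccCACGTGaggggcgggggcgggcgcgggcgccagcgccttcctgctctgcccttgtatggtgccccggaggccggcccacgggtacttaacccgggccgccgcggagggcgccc
DUSP7: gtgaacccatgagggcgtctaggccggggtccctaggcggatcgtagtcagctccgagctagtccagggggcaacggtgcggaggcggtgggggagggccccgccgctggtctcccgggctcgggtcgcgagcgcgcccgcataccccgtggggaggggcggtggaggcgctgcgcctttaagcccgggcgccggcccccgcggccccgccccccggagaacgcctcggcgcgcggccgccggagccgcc
DUSP16: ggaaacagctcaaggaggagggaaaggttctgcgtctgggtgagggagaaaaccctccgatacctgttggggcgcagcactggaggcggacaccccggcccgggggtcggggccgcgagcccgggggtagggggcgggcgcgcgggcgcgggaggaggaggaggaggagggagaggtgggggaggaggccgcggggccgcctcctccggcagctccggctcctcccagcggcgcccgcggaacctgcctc

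The DUSP1 window held 1 full CRE, 125 to 118 bases before the start, 4 cores in all (of which 2 are the arms of the full element), 1 E-box and a TATA box 30 to 25 bases before the start. The DUSP2 window held 1 E-box, and the windows of DUSP7 and DUSP16 held none of the capitalised elements. The DUSP8 window held 2 full CREs, 118 to 111 and 74 to 67 bases before its start. Unlike the 4 windows above, this window lies within the annotated span of its own gene, upstream of the RefSeq start used here. They are shown as stretches of 30 bases, at chr11:1572371-1572400 and chr11:1572327-1572356 on the minus strand, with the element in capitals.
DUSP8 distal: ccgggctccgcTGACGTCAcctgcccccga
DUSP8 proximal: ttggctgcaggTGACGTCAggggctttttt

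A full CRE was found in 1.65% of 35116 RefSeq windows of this length, a core in 21.2%, an E-box in 6.34%, an AP-1 site in 6.57% and a TATA box in 10.7%. The windows of DUSP6, DUSP10 and DUSP14 held no CRE and no core, and no member's window held an AP-1 site, a heat shock element or a CArG box. A GC box was found in every member window except that of DUSP6, beside 42.6% of all windows. Such matches describe letters in a window and are not measured binding sites.

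Totals ranged from 16097680 to 16176745 counts in the WT libraries and from 12805180 to 14307287 in those of CBS KO. CBS itself stood at 50.8 ± 2.11 CPM (counts scaled to a common library size) in WT and 22.8 ± 3.81 in CBS KO (SD, n = 3 in each). Epithelial and enterocyte markers were present in every library (8 of 8 genes, summed level 7359 to 7861 CPM in WT and 8470 to 9291 in CBS KO). The summed leukocyte markers (4 of 4 with a count) were at 32.4 to 38.2 CPM in WT and 93.3 to 109.8 in CBS KO, most of it CD68, while PTPRC stood at 0.014 CPM over all libraries. The summed endothelial markers (3 of 4 measured) were at 25.4 to 29.2 and 9.23 to 9.92 CPM. The summed fibroblast markers (3 of 4 measured) were at 200.5 to 227.6 and 177.7 to 193 CPM, most of it COL1A1, with COL1A2 at 0.0091 CPM over all libraries. The part of these shifts in the results was not tested. Of the tested genes 77.2% were called in the comparison (edgeR, adjusted p under 0.05), 38.4% as higher in CBS KO and 38.9% as lower, and the groups did not overlap in 79.1%, with 38.9% higher in CBS KO throughout and 40.1% lower. All CPM values are scaled with TMM (trimmed mean of M values), which puts the median change over all genes at -0.01 on the log2 scale. With the library total that median is -0.36 and with TPM it is -0.54, so small differences take their direction from the scaling. In bulk RNA a change in the share of cells that carry a transcript and a change in its amount per cell cannot be told apart.

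Read against that background, 8 of the 10 phosphatase genes were called higher in CBS KO and 0 lower, with DUSP7 and DUSP14 not called. The groups did not overlap for 9 of the 10, all but DUSP7. On log2(TPM + 1), where 9 were tested, 6 were called higher and 2 lower, beside 1878 higher and 8294 lower of all 12274 genes in that fit. The median log2 fold change of the 10 was 1.89, beside -0.01 for all genes tested. A rise of at least 2-fold was called for 6 members, beside 12% of all genes, and DUSP1, DUSP5 and DUSP10 passed 10-fold, beside 0.959%. DUSP10 (10.7-fold) and DUSP8 (9.47-fold) lay close to the 10-fold cutoff, and which of them passes it depends on the setting. Because the list was made knowing these results, the counts only describe the members.

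**Figure D1:**
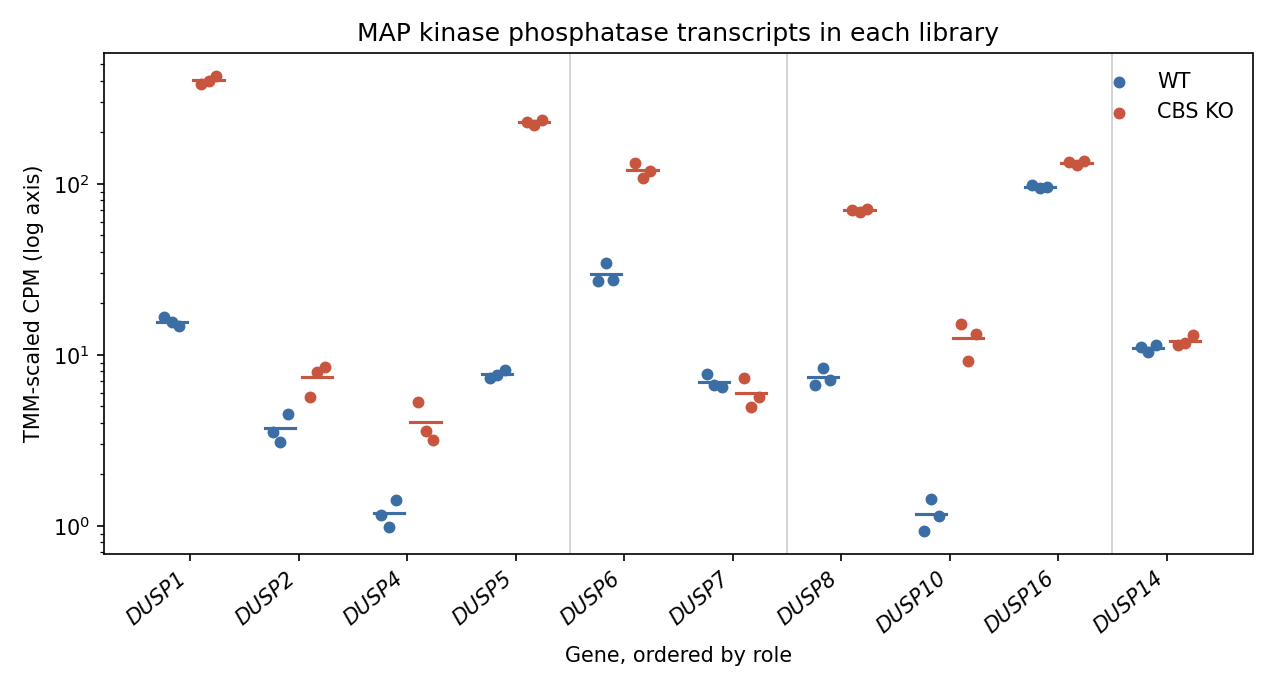
TMM-scaled CPM of the 10 genes in each library on a log axis, with points for single libraries (replicates 1 to 3 from left to right) and short lines for group means; grey verticals divide nuclear inducible, cytoplasmic ERK-directed, JNK and p38-directed and atypical members. DUSP1 and DUSP5 show the widest gap between WT and CBS KO, while the groups of DUSP7 overlap.

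Among the nuclear inducible enzymes, DUSP1 and DUSP5 stood out. DUSP1 (Entrez 1843, chromosome 5, 172768096 to 172771195) encodes MKP-1, an immediate early gene product that inactivates p38, JNK and ERK. Its level was 16.8, 15.5 and 14.7 CPM in WT, against 382, 402 and 429 CPM in CBS KO. Every CBS KO library thus lay far above every WT library, and the log2 fold change was 4.69 (SE 0.07), or 25.8-fold. DUSP5 (Entrez 1847, chromosome 10, 110497907 to 110511533), which binds ERK and holds it inactive in the nucleus, stood at 7.36, 7.57 and 8.14 CPM in WT and at 230.4, 221 and 237 CPM in CBS KO. Its groups were as far apart as those of DUSP1, with a log2 fold change of 4.90 (SE 0.08), or 29.8-fold.

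The other nuclear members were scarce and moved less. DUSP2 (Entrez 1844, chromosome 2, 96143169 to 96145440), known from activated lymphocytes, was measured at 3.52, 3.07 and 4.53 CPM in WT and at 5.66, 7.91 and 8.54 CPM in CBS KO. The groups did not overlap, but the lowest CBS KO library lay close to the highest WT library, and the log2 fold change was 0.99 (SE 0.18), or 0.31 on log2(TPM + 1). DUSP4 (Entrez 1846, chromosome 8, 29333064 to 29350684), a transcript that usually follows ERK activity, had 21, 18 and 26 counts in WT and 65, 41 and 39 in CBS KO, or 1.15, 0.99 and 1.42 CPM against 5.33, 3.60 and 3.17 CPM. CBS KO replicate 1 was the highest of the 6 libraries. With 65 counts in all of WT, its log2 fold change of 1.76 (SE 0.24) is among the least precise of the 10.

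The cytoplasmic ERK phosphatases went different ways. DUSP6 (Entrez 1848, chromosome 12, 89347235 to 89352501) encodes MKP-3, the main feedback phosphatase of ERK in the cytoplasm. It was the second most abundant of the 10 by reads in WT, at 27.1, 34.5 and 27.5 CPM, and stood at 133, 109 and 118 CPM in CBS KO. The groups were well separated, with a log2 fold change of 2.01 (SE 0.10), or 4.04-fold. DUSP7 (Entrez 1849, chromosome 3, 52048919 to 52056571), a close relative with the same target, was at 7.69, 6.69 and 6.45 CPM in WT and at 7.30, 4.92 and 5.69 CPM in CBS KO. Its groups overlapped, and the log2 fold change was -0.21 (SE 0.15). Without CBS KO replicate 1, the library with the most DUSP7 of that group, DUSP7 was called lower, and it was also called lower with the library total, FPKM and TPM. DUSP9, the third cytoplasmic ERK phosphatase and not one of the 10, rose from 38.3 ± 1.22 to 49.4 ± 4.27 CPM (0.37 on the log2 scale, SE 0.07, adjusted p = 0.00028), but was lower on log2(TPM + 1), at -0.22.

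Of the enzymes directed at JNK and p38, DUSP8 and DUSP10 were about an order of magnitude higher in CBS KO, whereas DUSP16 barely moved. DUSP8 (Entrez 1850, chromosome 11, 1554051 to 1572848), best known from brain and heart, was at 6.70, 8.34 and 7.16 CPM in WT and at 70.6, 68.3 and 71.5 CPM in CBS KO. The 3 CBS KO libraries were nearly identical, and the log2 fold change was 3.24 (SE 0.09), or 9.47-fold. DUSP10 (Entrez 11221, chromosome 1, 221701424 to 221742089), MKP-5, stood at 0.93, 1.43 and 1.15 CPM in WT, from 17, 26 and 21.08 counts, and at 15.1, 9.23 and 13.3 CPM in CBS KO. The lowest CBS KO library, replicate 2, was still more than 6 times the highest WT library.

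The log2 fold change of DUSP10 was 3.42 (SE 0.21), or 10.7-fold, and 1.46 on log2(FPKM + 1), where the added 1 exceeds the WT level. DUSP16 (Entrez 80824, chromosome 12, 12473282 to 12562863), MKP-7, a JNK phosphatase that shuttles between nucleus and cytoplasm, was the most abundant member in WT, at 98.98, 94.9 and 95.2 CPM, with 134, 129 and 136 CPM in CBS KO. These groups did not overlap, and the log2 fold change was 0.47 (SE 0.06), a direction that turned to -0.12 on log2(TPM + 1).

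The atypical member DUSP14 (Entrez 11072, chromosome 17, 37488566 to 37513498), also called MKP-6, lacks the kinase-binding domain of the larger enzymes. Its level was 11.2, 10.4 and 11.4 CPM in WT and 11.4, 11.8 and 13.1 CPM in CBS KO. The ranges touched without overlapping, and the log2 fold change was 0.14 (SE 0.10), or -0.50 on log2(TPM + 1), where it was called lower.

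**Figure D2:**
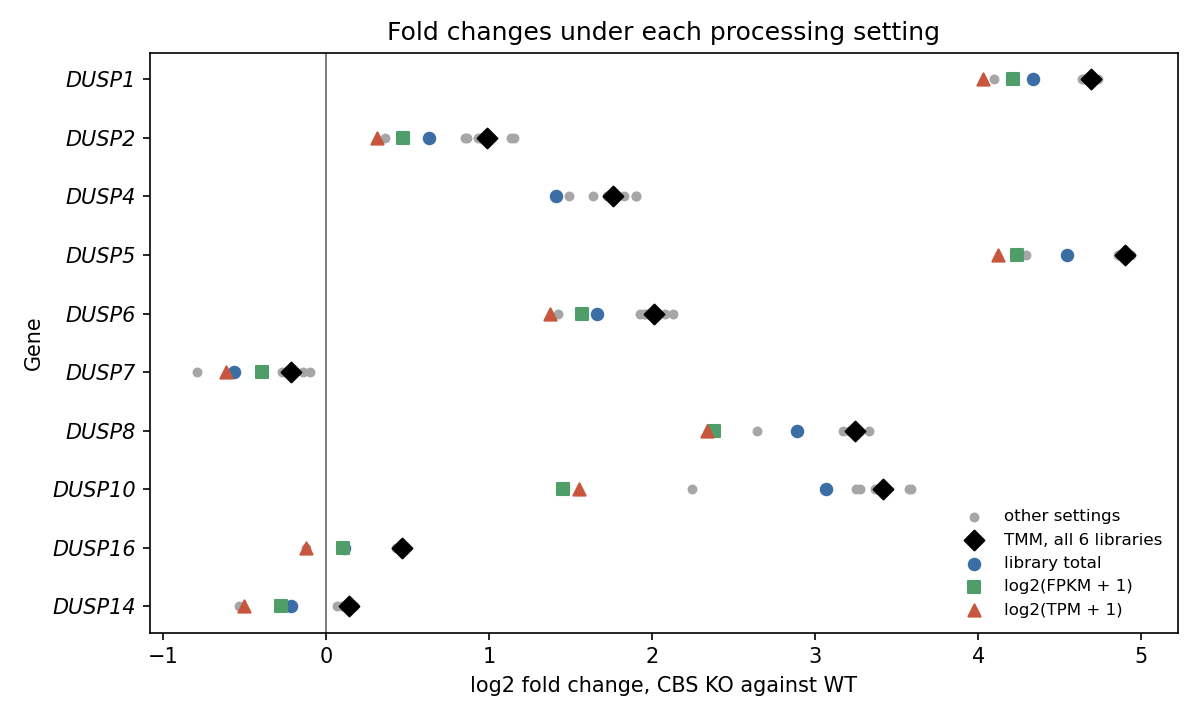
Log2 fold change of each gene (CBS KO against WT) under the 16 settings tried, with the TMM fit as a black diamond. The library total, log2(FPKM + 1) and log2(TPM + 1) are in colour. The remaining settings, among them the fits without 1 library, are in grey. DUSP1, DUSP5, DUSP6, DUSP8 and DUSP10 stay right of 0 at every setting, while DUSP16 and DUSP14 cross 0.

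Across all 16 settings the log2 fold change ranged from 4.03 to 4.74 for DUSP1, from 4.12 to 4.93 for DUSP5, from 2.33 to 3.33 for DUSP8, from 1.46 to 3.59 for DUSP10 and from 1.38 to 2.13 for DUSP6, and each was called higher in all 16. With TPM, DUSP10 met the filter of 1 in 3 libraries only through CBS KO, as WT stood at 0.72, 1.03 and 0.83. Its calls on TPM therefore add no support. DUSP4 was called higher in the 12 settings that tested it (1.41 to 1.903), DUSP2 in 15 of 16 (0.31 to 1.15) and DUSP16 in 12 of 16 (-0.12 to 0.48). Taken relative to the median of all genes in the same fit, DUSP16 lay 0.42 to 0.51 above it, DUSP14 lay 0.04 to 0.19 above it, and DUSP7 lay 0.07 to 0.37 below it. For DUSP16 and DUSP14 the sign changed between settings while the position above that median did not, and DUSP7 was negative on both measures throughout.

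The make-up of the phosphatase transcripts, taken per length as TPM within a library and so free of scaling between libraries, was different in the 2 groups. In WT, DUSP16 led with 36.3 ± 0.86 TPM, followed by DUSP14 (17.2 ± 0.83), DUSP1 (16.9 ± 1.09) and DUSP6 (16.6 ± 2.30), 3 genes whose ranges overlapped. DUSP5 came next with 6.54 ± 0.35 TPM, then DUSP2 (4.91 ± 0.95) and DUSP7 (4.20 ± 0.40), which overlapped, DUSP8 (2.98 ± 0.32), DUSP10 (0.86 ± 0.16) and DUSP4 (0.42 ± 0.08).

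In CBS KO the order was DUSP1 (291 ± 3.24 TPM), DUSP5 (129.997 ± 7.86), DUSP6 (44.7 ± 6.71), DUSP16 (33.3 ± 1.93), DUSP8 (19.1 ± 1.17), DUSP14 (11.8 ± 0.11), DUSP2 (6.32 ± 0.93), DUSP10 (4.51 ± 1.16), DUSP7 (2.42 ± 0.62) and DUSP4 (0.95 ± 0.33). Only DUSP2 and DUSP10 overlapped as neighbours in this order. The summed TPM of the 10 genes was 106 to 107 in the WT libraries and 529 to 568 in the CBS KO libraries. DUSP1 went from 15.8 ± 0.93% of that sum to 53.5 ± 1.58%, and DUSP5 from 6.12 ± 0.36% to 23.9 ± 0.50%. DUSP16 went from 33.98 ± 0.71% to 6.13 ± 0.12% and DUSP14 from 16.1 ± 0.80% to 2.17 ± 0.07%. DUSP8 held 2.79 ± 0.31% in WT and 3.503 ± 0.08% in CBS KO, without overlap between the groups, and the shares of DUSP10 (0.81 ± 0.15% and 0.83 ± 0.19%) overlapped.

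**Figure D3:**
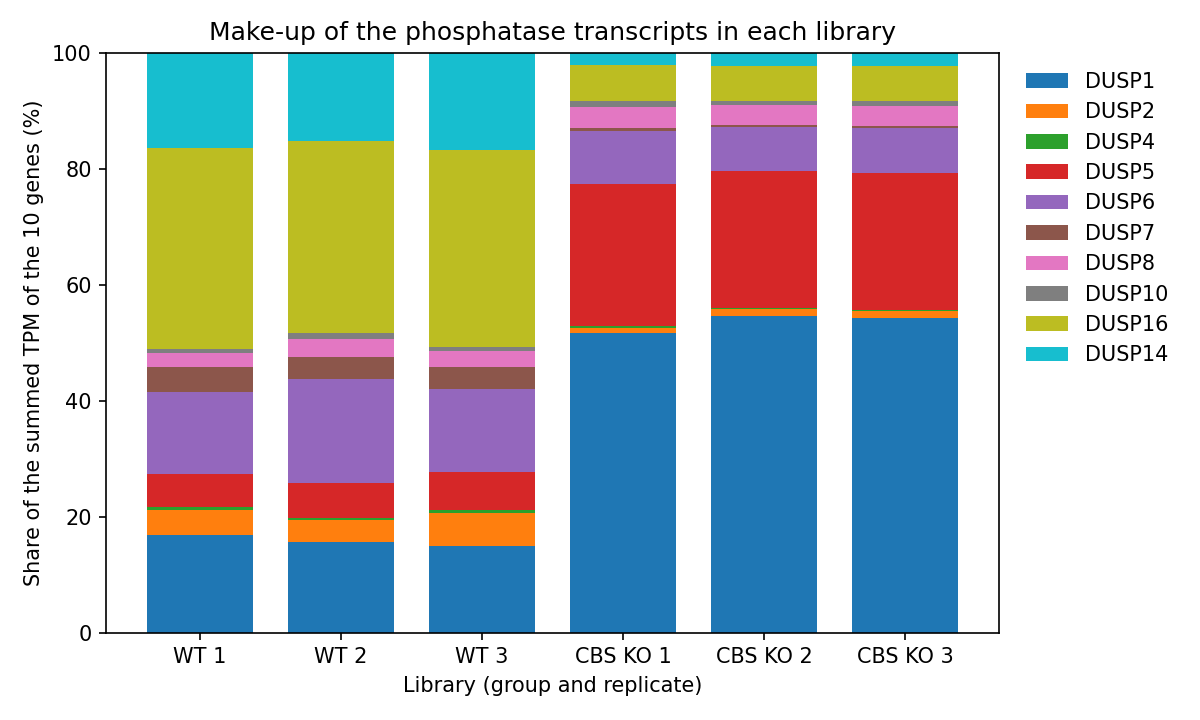
Share of each gene in the summed TPM of the 10 phosphatase genes, in percent, with 1 stacked bar for each library. DUSP16 is the widest band in the 3 WT bars and DUSP1 in the 3 CBS KO bars, where it holds 51.7 to 54.6%.

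The members also differ in gene structure, taken from 1 GENCODE v29 transcript for each gene. They have 2 to 7 exons, beside a median of 9 among tested genes, and DUSP1 and DUSP2 are the shortest genes, with spans of 3100 and 2272 bases. The heptamer TATTTAT, the core of the AU-rich elements that mark short-lived mRNAs, occurred in the 3′ untranslated region of 4 of the 10 (DUSP1 with 3 copies, DUSP4 with 4, DUSP8 with 2 and DUSP2 with 1), beside 30.7% of 12548 tested genes. These regions differ in length, with 672 bases in DUSP1, 3962 in DUSP4, 2474 in DUSP8 and 657 in DUSP2, beside a median of 979. The copy numbers are not corrected for length. DUSP5, DUSP6 and DUSP10 had no copy, nor had DUSP7, DUSP14 and DUSP16.

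The other dual-specificity phosphatases were divided. Of 15 measured, 13 were tested, of which 5 rose, 3 fell and 5 missed the threshold (median -0.04). On log2(TPM + 1) 1 was higher and 11 lower, beside 1878 and 8294 of all 12274 genes in that fit. Most genes are thus lower on that scale, and the log2(TPM + 1) counts of every list below stand beside the same background. DUSP22, which acts on JNK signalling, rose 1.51-fold (log2 fold change 0.60, SE 0.08, adjusted p = 2.52e-06), and DUSP3, the abundant atypical ERK and JNK phosphatase VHR, went from 152 ± 3.90 to 201 ± 2.18 CPM (0.40, SE 0.05). Both turned on log2(TPM + 1), to -0.10 and -0.18. DUSP23, a very small phosphatase, fell from 22.5 ± 1.04 to 15.7 ± 1.30 CPM (log2 fold change -0.52, SE 0.09). Phosphatases of other families that act on MAP kinases numbered 4 tested, of which 3 rose with TMM. With the library total 2 were higher and 1 lower, and on log2(TPM + 1) 1 and 1 of 3 tested. PPM1A, a serine/threonine phosphatase of p38 and JNK, rose 2.18-fold (1.13, SE 0.07, adjusted p = 1.41e-10), and PPM1B stood at a log2 fold change of 0.41 (SE 0.07), or -0.07 on log2(TPM + 1).

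The kinases on which the phosphatases act changed in both directions. Of 11 MAP kinases tested, 6 rose and 2 fell (median 0.35), against 3 higher and 6 lower on log2(TPM + 1). MAPK3 (ERK1) rose from 62.9 ± 3.63 to 117 ± 12.3 CPM (0.89, SE 0.08, adjusted p = 1.71e-08). MAPK9 (JNK2) rose 1.56-fold with TMM and did not pass on log2(TPM + 1), the atypical kinase MAPK6 (ERK3) 3.04-fold, and MAPK7 (ERK5) fell 2.93-fold. MAPK14, p38 alpha, was at 136 ± 4.78 and 139.8 ± 2.27 CPM and did not pass (adjusted p = 0.542; chosen after its value was seen). The other p38 genes, also chosen after their values were seen, differed. MAPK11 was called higher (2.23 on the log2 scale, from 56 counts in WT), MAPK12 was called lower (-0.22) and MAPK13 was not called.

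Of 7 MAP kinase kinases 4 rose and 3 fell (median 0.17), or 1 and 4 on log2(TPM + 1). MAP2K1, the ERK kinase MEK1, rose by 0.93 on the log2 scale (SE 0.07), MAP2K2 rose 1.51-fold with TMM and stood at 0.003 on log2(TPM + 1), MAP2K7, a JNK kinase, was at 0.45 (SE 0.07) with TMM and -0.13 on log2(TPM + 1), and MAP2K3, a p38 kinase, fell 1.33-fold. In the tier above, 10 of 23 genes rose and 7 fell (3 and 16 on log2(TPM + 1)). MAP3K8, the ERK-activating kinase TPL2, rose 2.69-fold and MAP3K2 1.92-fold, while TAOK2 fell 2.53-fold and MAP3K11, which feeds JNK, fell 1.73-fold.

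Kinases activated by MAP kinases were lower in 6 of 11 cases and higher in 3 (median -0.30), or 7 and 0 on log2(TPM + 1). RPS6KA4 (MSK2), which phosphorylates CREB and histone H3, fell 2.18-fold from 45.2 ± 2.65 to 20.7 ± 1.39 CPM, and RPS6KA3 (RSK2) fell 1.42-fold. MAPKAPK2, the kinase below p38, was at a log2 fold change of 0.48 (SE 0.05) with TMM and -0.13 on log2(TPM + 1), and MKNK2 was at 0.53 (SE 0.06) and -0.03. Of 10 scaffolds of the cascades 5 rose and 1 fell (median 0.22; 2 and 5 on log2(TPM + 1)). PEA15, which keeps ERK in the cytoplasm, rose 3.41-fold (1.77, SE 0.07), and SPAG9, the JNK scaffold JIP4, rose from 218 ± 2.41 to 717 ± 57.9 CPM (1.72, SE 0.07). LAMTOR3 and MAPK8IP3 stood at 0.46 and 0.30 with TMM and at -0.11 and -0.25 on log2(TPM + 1).

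The other feedback inhibitors of the ERK cascade were higher with TMM, less clearly so with other scalings. All 7 Sprouty and SPRED genes, which act above RAF, were called higher with TMM (median 0.64). On log2(TPM + 1), where SPRY3 was too low to be tested, 2 were called higher, 0 lower and the other tested genes not called. SPRY1, named outside the rule set out below, had a mean of 12.6 TPM in WT and 10.9 in CBS KO. Its TPM ranges overlapped, and it was not called on that scale. SPRY2 rose from 14.6 ± 0.74 to 35.7 ± 0.79 CPM (1.29, SE 0.08, adjusted p = 2.27e-10) and SPRED1 from 12.4 ± 0.74 to 26.6 ± 3.24 CPM (1.11, SE 0.10). SPRED3 and SPRY4 were at 0.64 (SE 0.15) and 0.56 (SE 0.09), and neither passed on log2(TPM + 1).

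Transcripts that commonly follow ERK activity did not move as a block: of 11 tested, 6 rose, 4 fell and 1 did not pass (median 1.04). On log2(TPM + 1) the counts were 6 and 5. IER3, an early response gene that prolongs ERK activity, rose 8.31-fold from 15.5 ± 2.77 to 128 ± 6.96 CPM, PHLDA1 rose 5.58-fold and the ETS factor ETV5 3.33-fold, while EGR1, an immediate early transcription factor, fell 5.70-fold (log2 fold change -2.51, SE 0.11, adjusted p = 6.23e-12). CCND1 and MYC, chosen after their values were seen because both are commonly read as outputs of ERK, fell by 0.49 (SE 0.06) and 0.31 (SE 0.08) on the log2 scale. The other called genes of the list, added so that both directions show, were EPHA2 (1.65), FOSL1 (1.63), ETV4 (1.04) and EPHA4 (-1.40).

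Of 19 transcription factors acted on by MAP kinases, 15 were higher and 1 was lower (median 1.15; 11 and 6 on log2(TPM + 1)). JUN, the AP-1 subunit activated by JNK, rose 33.6-fold from 14.9 ± 0.43 to 500.1 ± 25.8 CPM, ATF3 20.8-fold, FOSB 16.1-fold from 33 counts in WT, and JUND 6.77-fold. CREB1, a factor that binds the CRE, stood at 49.98 ± 3.11 and 53.98 ± 5.96 CPM and did not pass (adjusted p = 0.228; chosen after its value was seen). CREM, ATF2 and ATF1 of the same list, also chosen after their values were seen, were called higher with TMM (0.82, 0.70 and 0.31). ATF1 had a lower mean TPM in CBS KO (19.4) than in WT (22.8). Proteins that bind AU-rich elements were divided, with 3 of 8 higher and 4 lower (2 and 4 on log2(TPM + 1)). ZFP36, tristetraprolin, which speeds the decay of such mRNAs, rose 5.57-fold, and its relative ZFP36L2 fell 2.31-fold from 442 ± 14.4 to 191 ± 15.7 CPM. TIAL1 rose 1.79-fold and ZFP36L1 1.71-fold, although the latter did not pass on log2(TPM + 1).

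**Figure D4:**
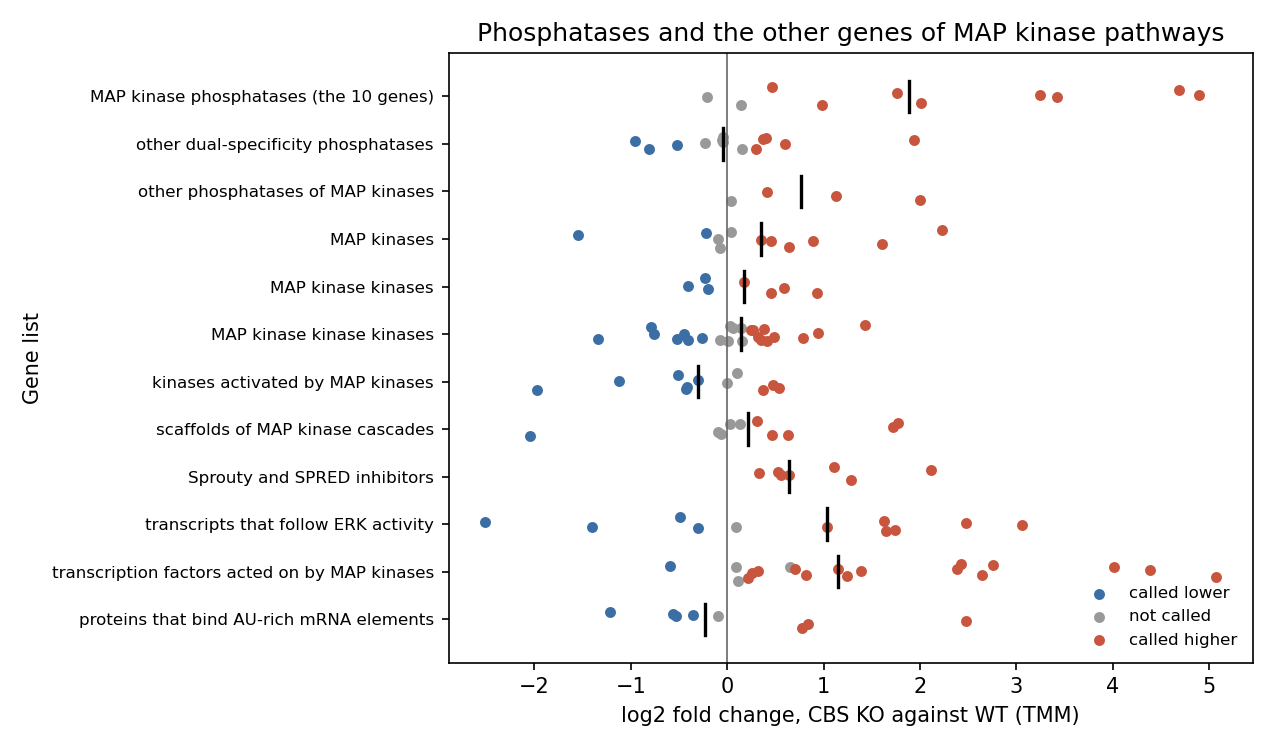
Log2 fold change (TMM, CBS KO against WT) of the tested genes in each list, 1 point a gene, coloured by call at an adjusted p under 0.05, with a black line at the list's median. The phosphatases have a median of 1.89, and the MAP kinases and their kinases lie closer to 0 with calls on both sides.

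Counted together, 124 other pathway genes were tested, of which 67 rose, 31 fell and 26 did not pass (median 0.30). With the library total 41 were higher and 56 lower, and on log2(TPM + 1) 32 and 65. The split thus depends on the scaling, as it does for all genes, while the rises of DUSP1, DUSP5, DUSP6, DUSP8 and DUSP10 exceed every scaling shift.

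Transcripts were ranked by Euclidean distance of log2 CPM over the 6 libraries, leaving out genes with clone, LOC, LINC and antisense names. Those most like DUSP1 were JUN (distance 0.55), CCN1, a matricellular immediate early gene (0.68), and CEACAM6, an adhesion protein (0.80). JUN and CCN1 stood at 14.9 and 16.4 CPM in WT, beside 15.7 for DUSP1, and at 500.1 and 311 CPM in CBS KO, beside 404. Those most like DUSP6 were the mucin MUC3A (0.38), ZFAND5 (0.43) and TIPARP (0.49). With 6 libraries in 2 groups, this measure ranks genes by how near their levels in both groups lie to those of DUSP1 or DUSP6.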

How the data were processed

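Caco-2 mRNA was measured in 6 libraries, grouped as WT and CBS KO by the sample titles. GRCh38, HISAT2 2.2.1, StringTie 2.1.6, cutadapt 1.9, edgeR and DESeq2 are listed, without roles, per the submitters' processing notes. How reads were assigned to genes, and with what use of strand, is not given in the sources used here. The authors deposited estimated counts (7.12 to 7.43% not whole numbers), FPKM and TPM values for 16781 genes, per the file headers. Counts were rounded, filtered with filterByExpr (13028 genes), scaled by TMM and tested by edgeR's quasi-likelihood test (edgeR 4.0.16, limma 3.58.1, DESeq2 1.42.0, R 4.3.3), with Benjamini-Hochberg adjustment over all genes and a threshold of 0.05. The test was checked on simulated counts with few genes changed, equally up and down, at a fixed dispersion. That check says nothing about the choice of scaling. FPKM and TPM were tested with limma on log2(value + 1) over genes reaching 1 in 3 libraries; such fold changes understate the change of low genes. Errors are SD with n = 3 or the SE of a log2 fold change. Members and lists were chosen with earlier results of these data known. Genes named are the 10 members, up to 4 called genes a list with the largest change and at least 5 CPM in the higher group, 3 nearest profiles for DUSP1 and DUSP6, and CBS; others are marked. Libraries of a group differed beyond sampling noise (chi-square per gene 2.02 to 14.1). A count of 0 would allow up to 0.164 to 0.264 CPM, counting error only.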

Additional observations from a re-analysis of the deposited data

How the results depend on the processing

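The count of members called higher (8) fell to 5 on log2(TPM + 0.1), and that of members called lower (0) was 1 with the library total and 2 with FPKM, with log2(TPM + 1) and with log2(TPM + 0.1). Leaving out 1 library gave 8 higher and 0 to 1 lower, the 1 being DUSP7 without CBS KO replicate 1. Of the other pathway genes, 41 were higher and 56 lower with the library total, 39 and 52 with FPKM, and 32 and 65 with TPM at either pseudocount, against 67 and 31 with TMM. Of all genes, 2966 were higher and 7403 lower with the library total, 2722 and 6876 with FPKM, 1878 and 8294 on log2(TPM + 1), and 1866 and 8266 on log2(TPM + 0.1), against 4998 and 5062. Among genes called with TMM, changes of sign came with TPM, at pseudocounts of 1 and 0.1: DUSP16 (-0.12 and -0.12), DUSP3 (-0.18 and -0.19), DUSP9 (-0.22 and -0.23), DUSP22 (-0.10 and -0.10), PPM1B (-0.072 and -0.074), MAP2K7 (-0.13 and -0.13), LAMTOR3 (-0.11 and -0.12), MAPKAPK2 (-0.13 and -0.13), MKNK2 (-0.032 and -0.033) and MAPK8IP3 (-0.25 and -0.25), the last also with the library total (-0.048) and FPKM (-0.019). DUSP14, not called with TMM, turned with the library total (-0.21), FPKM (-0.28) and TPM (-0.50 and -0.53). DESeq2, median-ratio factors and no filter moved none of these 3 counts by over 1.5 times, nor did a minimum mean of 5 CPM, which left DUSP4 out. The deposited replicate numbers are shared by the groups, and with 3 libraries a group it cannot be settled whether they pair the libraries. Same-numbered libraries deviated together at r of 0.02 to 0.04 and differently numbered ones at -0.047 to 0.024. CBS KO replicate 2 was closest to WT replicate 3. With the replicate block 8 members were higher and 0 lower, 66 and 30 other pathway genes, and 4986 and 5058 of all genes. The cause of these shifts was not tested. Depth limits DUSP4 and DUSP10 most, with 65 and 64.08 counts in all of WT.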
